A study of Mus musculus with 8 samples.

Results

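The genes of TGF-beta, BMP and activin signalling were compared between mouse embryonic fibroblasts lacking Cbx2 and wild-type fibroblasts. They were chosen by symbol, as the TGF-beta, BMP, GDF and activin or inhibin ligands, the latent TGF-beta binding proteins, the extracellular antagonists, the receptors, the SMADs and the Id genes, and they made up 60 of the 17441 genes in the authors' deposited table. A further 2 RefSeq genes that fit the naming rule, Gdf3 and Inhbe, were not analysed here. The knockout cells came from Cbx2-/- embryos, in which both alleles of the polycomb gene Cbx2 are knocked out by a design the labels do not describe, and the control cells from wild-type littermates. Cells of both genotypes were primary cultures from embryonic day 18, used at passage 2 and kept in serum-containing medium. RNA was sequenced from 2 knockout and 2 wild-type libraries, at about 4.62 Gb each, and the labels do not state if replicate libraries stem from different embryos or from pools, so p-values measure the spread between these libraries, which may be technical.

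Ligands of this family are secreted dimers that bring a type II and a type I receptor kinase together, and the type I receptor then phosphorylates SMAD proteins. TGF-beta and activin ligands act mainly through Smad2 and Smad3, and BMPs through Smad1, Smad5 and Smad9, each joined by Smad4. TGF-beta is stored in the matrix in a latent form, BMPs are held back by secreted antagonists such as noggin and chordin, and the Id genes, which encode inhibitors of basic helix-loop-helix factors, are direct BMP targets. In fibroblasts the family is known for its control of matrix production, myofibroblast conversion and skeletal patterning.

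The deposited table gives 1 normalised read signal per genotype, a log2 fold change (knockout over wild type) and a p-value from the authors' DESeq2 comparison. A gene was called where the DESeq2 adjusted p over all genes was under 0.05. The standard errors given here are implied by the deposited fold change and p, since each genotype has a single value. In genes with few reads both values are pulled toward each other, so that their difference is understated. Cbx2 itself had a signal of 29.0 in knockout and 347 in wild type, a log2 fold change of -3.58 in the authors' deposited table (DESeq2 adjusted p 2.55e-44). Fibroblast transcripts were abundant in both genotypes, with Col1a2 at 106979 in knockout and 130560.5 in wild type in the authors' deposited table. Markers of macrophages, endothelium and epithelium were also detected and some differed between the genotypes, as given with the marker lists.

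The changes in the family were modest and almost all of them were falls. Of the 60 genes 12 were lower in knockout and 1 was higher in the authors' deposited table (13 called, against 7.78% of all genes), while 4.3% of all 17441 genes were lower and 3.48% higher. Among those that fell were the BMP antagonist Grem1, the activin antagonist Fstl3 and the activin ligand gene Inhba. Ltbp2, a matrix protein gene of the latent TGF-beta binding family, and the protease gene Bmp1 also fell. So did the receptor genes Acvr2a, Tgfbr3, Tgfbr1 and Bmpr1a, and the BMP targets Id4 and Id3. The BMP ligand gene Bmp4 rose. None of the 13 changes reached 2-fold. The median log2 fold change of the 60 genes was -0.11, against 0.0036 over all genes, and 44 of the 60 had a fold change below 0 (73.3%), against 49.3% of all genes.

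**Figure D1:**
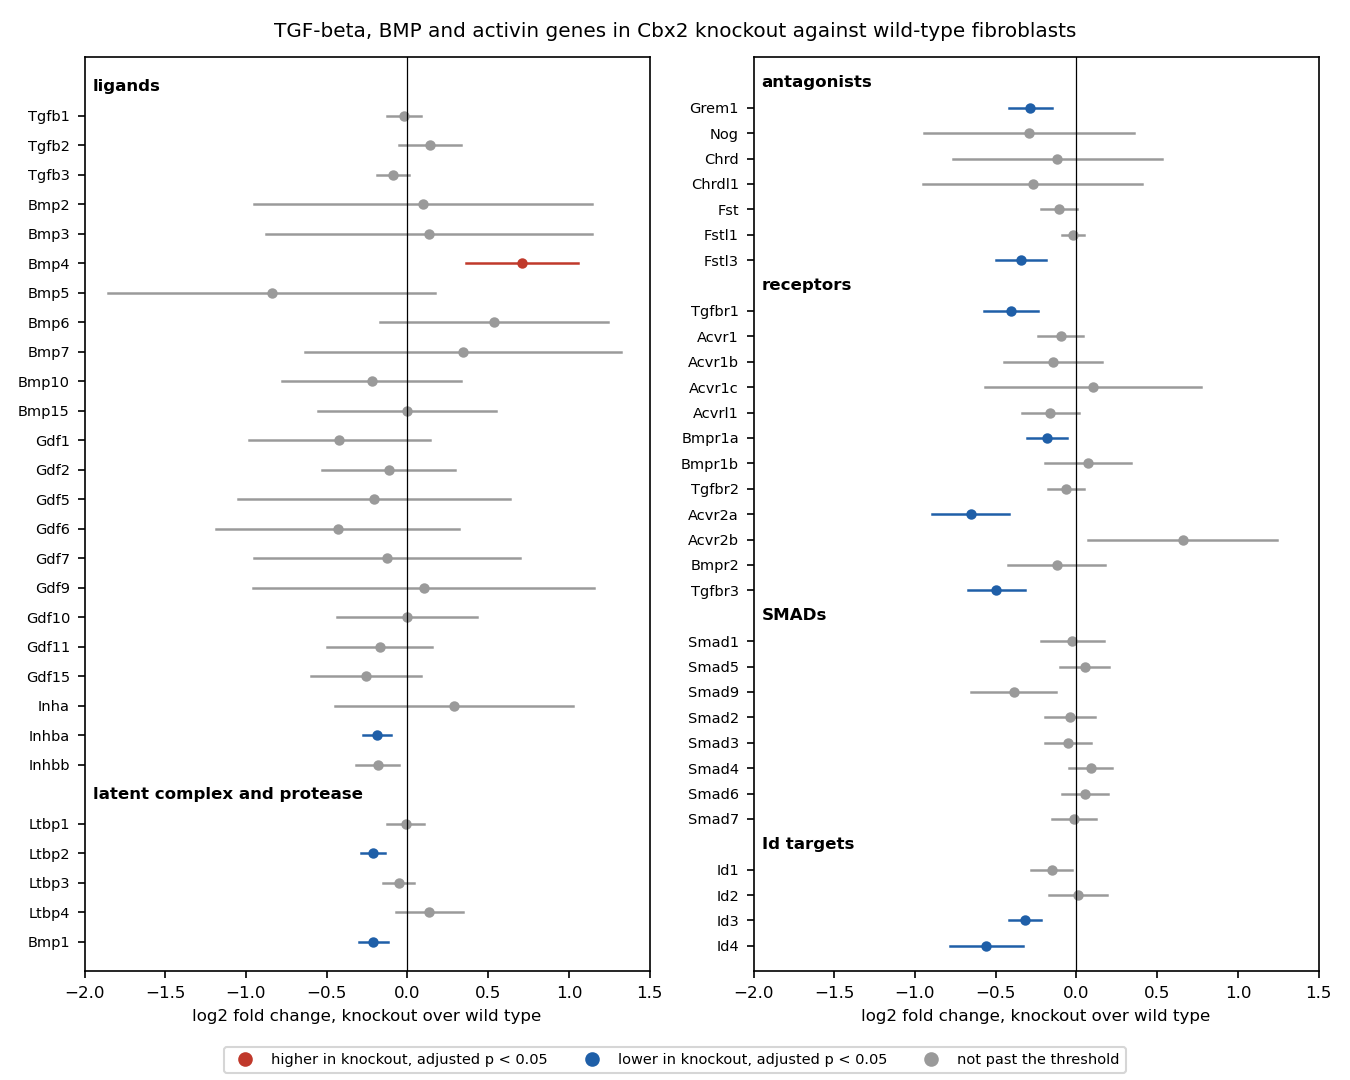
The plot gives the log2 fold change (knockout over wild type) of 59 of the 60 genes in the authors' deposited table, ordered by role, with the 95% interval implied by the deposited p as a line. Blue points are 11 of the genes that fell, the red point is Bmp4, and grey points did not pass the threshold. Intervals are wide for ligands with few reads such as Bmp2 (implied standard error 0.53), but narrower for Gdf2 (0.21), which had 1 read in all. In genes with few reads both values are pulled toward each other, so a narrow interval there is no sign of precision.

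Expression level bears on these counts, since falls were more frequent among abundant genes in the whole table. Of the 60 genes 38 had a mean signal at or above the median of all genes (230.3). All 12 falls were among these 38 (31.6%), and none of the 38 was higher. Of all 8721 genes at or above that median 7.1% were lower and 4.66% higher. Within narrower bands of level the share of family members lower in knockout was 0 of 4 at a mean of 100 to 300, against 4.44% of all genes, and 1 of those 4, Bmp4, was higher. It was 22.2% (2 of 9) at a mean of 300 to 1000, against 3.95% of all genes, 29.4% (5 of 17) at 1000 to 3000, against 7.71%, and 44.4% (4 of 9) at 3000 to 10000, against 15.5%. Above 10000, with only 2 members, 1 was lower, against 25.1% of all genes. Of the 19 members under a mean of 100 none was called in either direction, and there 0.794% of all genes were lower and 1.69% higher.

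**Figure D2:**
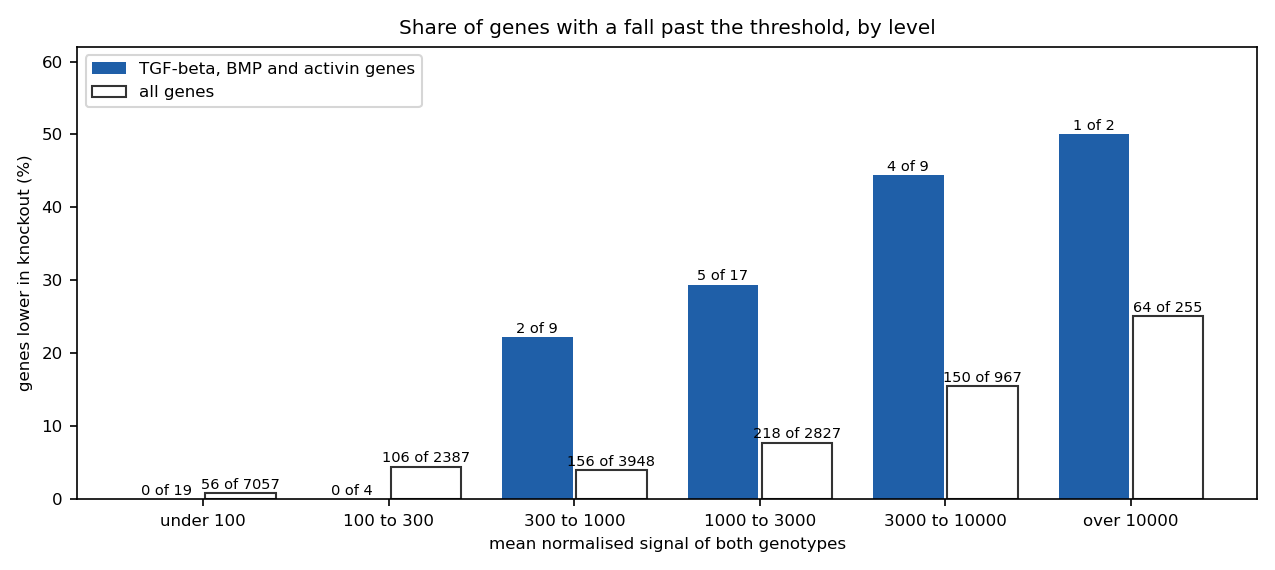
Bars give the percentage of genes lower in knockout (DESeq2 adjusted p under 0.05 in the authors' deposited table) in bands of mean normalised signal, for the TGF-beta, BMP and activin genes in blue and for all genes in white, with the counts above them. In each of the 4 bands above 300 the blue bar is the taller, with 2 of 9, 5 of 17, 4 of 9 and 1 of 2 genes. The top band, above 10000, holds only 2 of the family, and 25.1% of all genes there were lower.

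Promoters of 5 of these genes are shown first. RefSeq windows (GRCm38.p6, the assembly that mm10 corresponds to) from 250 bases before to 50 after the transcript start were found for 42 of the 60 genes. Those of Bmp4, which rose, Grem1, Id3 and Id4, which fell, and Id2, which did not pass, are given because they include both directions of change and the BMP targets side by side. The Bmp4 window is chr14:46390620-46390919 on the minus strand, that of Grem1 chr2:113758599-113758898 on the minus strand, that of Id2 chr12:25096043-25096342 on the minus strand, that of Id3 chr4:136143572-136143871 on the plus strand and that of Id4 chr13:48260866-48261165 on the plus strand. Capitals mark the short SMAD-binding letters CAGAC, read on either strand, and the GC-rich SMAD motif GGCGCC, a palindrome. Both strands were searched, and matches of different motifs may share bases.
Bmp4: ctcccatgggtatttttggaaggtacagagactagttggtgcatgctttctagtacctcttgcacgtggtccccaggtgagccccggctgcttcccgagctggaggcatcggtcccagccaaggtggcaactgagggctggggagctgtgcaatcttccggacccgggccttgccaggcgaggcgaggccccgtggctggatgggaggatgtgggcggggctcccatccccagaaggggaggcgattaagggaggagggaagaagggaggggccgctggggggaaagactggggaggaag
Grem1: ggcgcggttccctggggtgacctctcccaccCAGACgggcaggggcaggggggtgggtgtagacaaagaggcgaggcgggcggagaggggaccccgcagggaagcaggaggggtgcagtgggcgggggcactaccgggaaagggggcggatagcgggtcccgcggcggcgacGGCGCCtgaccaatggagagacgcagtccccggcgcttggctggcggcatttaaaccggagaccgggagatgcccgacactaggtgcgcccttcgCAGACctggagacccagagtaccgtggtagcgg
Id2: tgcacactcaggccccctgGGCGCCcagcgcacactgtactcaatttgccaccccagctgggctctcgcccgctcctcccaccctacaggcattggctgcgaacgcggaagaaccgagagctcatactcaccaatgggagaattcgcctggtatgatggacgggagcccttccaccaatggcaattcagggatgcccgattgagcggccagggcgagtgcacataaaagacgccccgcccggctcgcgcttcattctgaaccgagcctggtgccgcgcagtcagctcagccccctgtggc
Id3: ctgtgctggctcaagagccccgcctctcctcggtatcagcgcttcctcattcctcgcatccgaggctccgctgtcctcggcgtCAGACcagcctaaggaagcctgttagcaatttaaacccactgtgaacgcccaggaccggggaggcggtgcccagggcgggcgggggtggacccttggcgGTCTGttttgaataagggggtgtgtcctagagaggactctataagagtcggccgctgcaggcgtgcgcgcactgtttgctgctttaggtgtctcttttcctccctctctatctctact
Id4: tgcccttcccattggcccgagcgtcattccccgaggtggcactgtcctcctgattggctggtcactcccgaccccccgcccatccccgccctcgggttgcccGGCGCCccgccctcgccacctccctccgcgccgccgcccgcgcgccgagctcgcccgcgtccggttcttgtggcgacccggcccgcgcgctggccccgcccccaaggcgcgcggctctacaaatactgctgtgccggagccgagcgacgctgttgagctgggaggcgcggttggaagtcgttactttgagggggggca

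The matches differed between these promoters. CAGAC occurred 2 times in the Id3 window and 2 times in that of Grem1, and GGCGCC 1 time each in those of Grem1, Id2 and Id4, whereas the Bmp4 window held neither. Among all 32851 RefSeq windows, 49.6% held CAGAC and 11.9% held GGCGCC. In the first window of each of 13621 genes with an expression value the shares were 48.5% and 19.6%. Of the 42 members 18 held CAGAC (42.9%) and 12 held GGCGCC (28.6%), and of the 9 members that fell and had a window, 5 held CAGAC and 4 held GGCGCC. The longer palindrome GTCTAGAC was found in 1 member, Smad6, the inhibitory SMAD of the BMP branch, and in 0.213% of all windows. GC content was a median of 64.7% in the 42 member windows and 59.7% in the first windows of all genes. In the windows of the 9 members that fell it was 70.7%, and GGCGCC holds only G and C. Whether GGCGCC was more frequent there than in windows of like GC content was not tested.

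Among the ligands Bmp4 was the gene that rose and Inhba the gene that fell, and 21 of 23 did not pass the threshold. These shares (4.35% lower and 4.35% higher) lay near those of all genes (4.3% and 3.48%). Bmp4 (gene 12159, chromosome 14 from 46383525 to 46390669), a BMP ligand of limb and mesenchyme, had a signal of 285 in knockout and 174 in wild type. Its log2 fold change was 0.71 with an implied standard error of 0.18, a 1.63-fold difference (95% interval 1.28 to 2.08), in the authors' deposited table (DESeq2 adjusted p 0.00152). Inhba (gene 16323, chromosome 13 from 16004256 to 16031609), which encodes the activin A subunit, had a signal of 8533 in knockout and 9709 in wild type. The log2 fold change was -0.19 with an implied standard error of 0.044 in the authors' deposited table (DESeq2 adjusted p 6.26e-04), a small fall in an abundant transcript. Inhbb, the activin B subunit, had a log2 fold change of nearly the same size, -0.18, with an implied standard error of 0.067, and missed the threshold in the authors' deposited table (DESeq2 adjusted p 0.0717).

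The 3 TGF-beta genes were abundant and none passed. Tgfb1 had a signal of 3344 in knockout and 3395 in wild type, a fold of 0.985 with an implied 95% interval of 0.915 to 1.06, in the authors' deposited table. Tgfb3 had 5104 and 5427, and Tgfb2 had 827 and 751, in knockout and wild type, with folds of 0.940 (0.879 to 1.01) and 1.10 (0.964 to 1.26) in the authors' deposited table. None of the 9 GDF genes passed, with log2 fold changes from -0.43 to 0.10, among them Gdf15, a stress-induced ligand, at 209 in knockout and 249.8 in wild type, and Gdf11 at 235 and 265, in the authors' deposited table. The value of Gdf1 (68.8 in knockout and 92.2 in wild type in the authors' deposited table) is uncertain, because its locus overlaps that of Upf1 and the sources used here do not say how reads were assigned or whether strand was used.

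Per kilobase of transcript, which allows levels of different genes to be set side by side, Inhba stood first among the ligands with a signal of 5581 per kb in knockout and 6349.7 in wild type. Tgfb1 and Tgfb3 came next and close to each other, Tgfb1 with 1526 and 1549 and Tgfb3 with 1501 and 1596, before Inhbb with 423 and 481 per kb, in knockout and wild type. Bmp4 was the highest BMP ligand at 138 per kb in knockout and 84.7 in wild type, followed by Bmp6 at 16.9 and 11.7. The summed level of the 8 BMP ligands was 166 per kb in knockout and 108 in wild type, most of it Bmp4. This sum carries no replicate error.

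**Figure D3:**
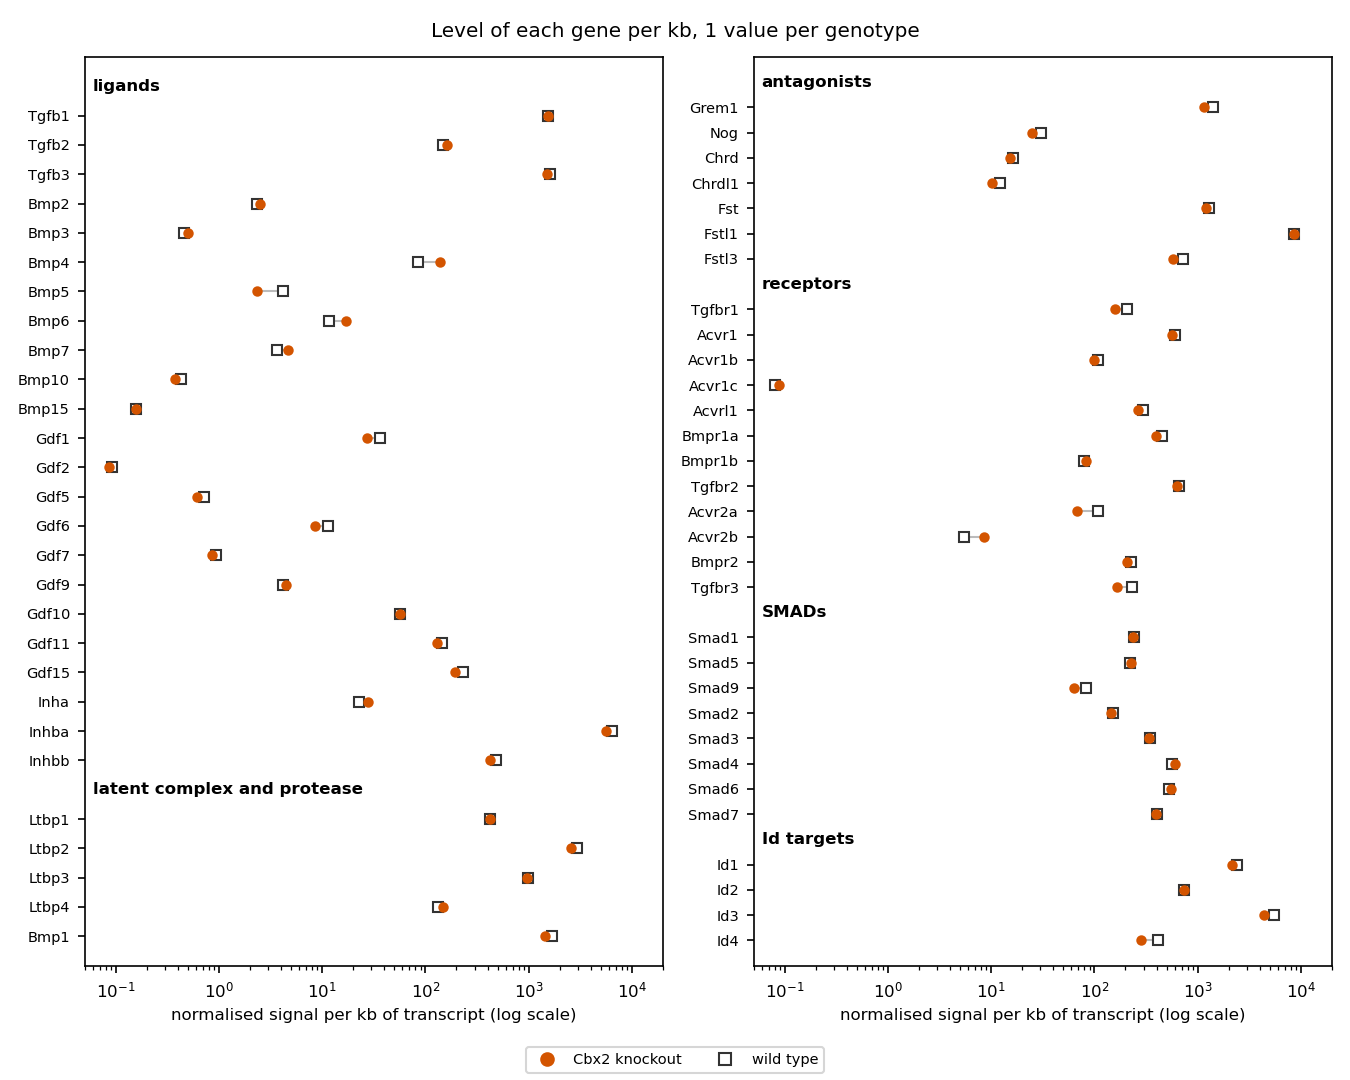
The normalised signal per kb of transcript of 59 genes is drawn on a log axis, as a filled orange circle for Cbx2 knockout and an open square for wild type, 1 value per genotype. The lowest levels are those of Gdf2 (0.086 in knockout and 0.093 in wild type) and Acvr1c (0.088 and 0.082), and the highest are those of Fstl1 (8495 and 8629.6). The filled circle of Bmp4 lies to the right of its open square, at 138 in knockout and 84.7 in wild type.

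Reads in each library could be recovered for 18 of the 60 genes, because the mean of both deposited values is a sum of whole reads and each read is worth a fixed amount in its library. The size factors were 1.03 and 1.03 in the knockout libraries and 1.01 and 0.935 in the wild-type libraries. Bmp6, a BMP ligand, had 49 and 58 reads in the knockout libraries, against 38 and 28 in the wild-type libraries. Both knockout libraries lay above both wild-type libraries, and the difference did not pass (limma log2 difference 0.60 with a standard error of 0.23, adjusted p 0.121, and DESeq2 adjusted p 0.626 in the authors' deposited table). The Bmp6 locus overlaps that of Txndc5, so its value is uncertain too. Bmp5, another BMP ligand, had 8 and 7 reads in the knockout libraries, against 25 and 10 in the wild-type libraries. Its wild-type libraries differed from each other more than the lower of them differed from knockout (limma log2 difference -1.07, standard error 0.43, adjusted p 0.137, and DESeq2 adjusted p 0.534 in the authors' deposited table).

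Other ligands with few reads varied within a genotype. Bmp7 had 18 and 19 reads in the knockout libraries, against 19 and 6 in the wild-type libraries. A single low wild-type library thus set the difference for Bmp7, and the groups overlapped. Inha, the inhibin subunit gene, had 47 and 39 reads in the knockout libraries, against 31 and 33 in the wild-type libraries, and Gdf6, a ligand of joint formation, had 28 and 32 against 38 and 42. In Inha the knockout libraries were the higher and in Gdf6 the lower, without overlap and without passing either test. Bmp2 had 11 and 8 reads in the knockout libraries, against 9 and 7 in the wild-type libraries, Gdf9 had 6 and 11 against 5 and 9, and Bmp3 had 3 and 4 against 2 and 3. All 3 overlapped. Gdf5, Gdf7, Bmp10, Bmp15 and Gdf2 had from 1 to 6 reads over all 4 libraries, at which no difference was detectable. The Gdf9 locus overlaps that of Uqcrq and the Gdf7 locus that of Ldah, both far more abundant, so the reads of Gdf9 and Gdf7 are uncertain too.

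**Figure D4:**
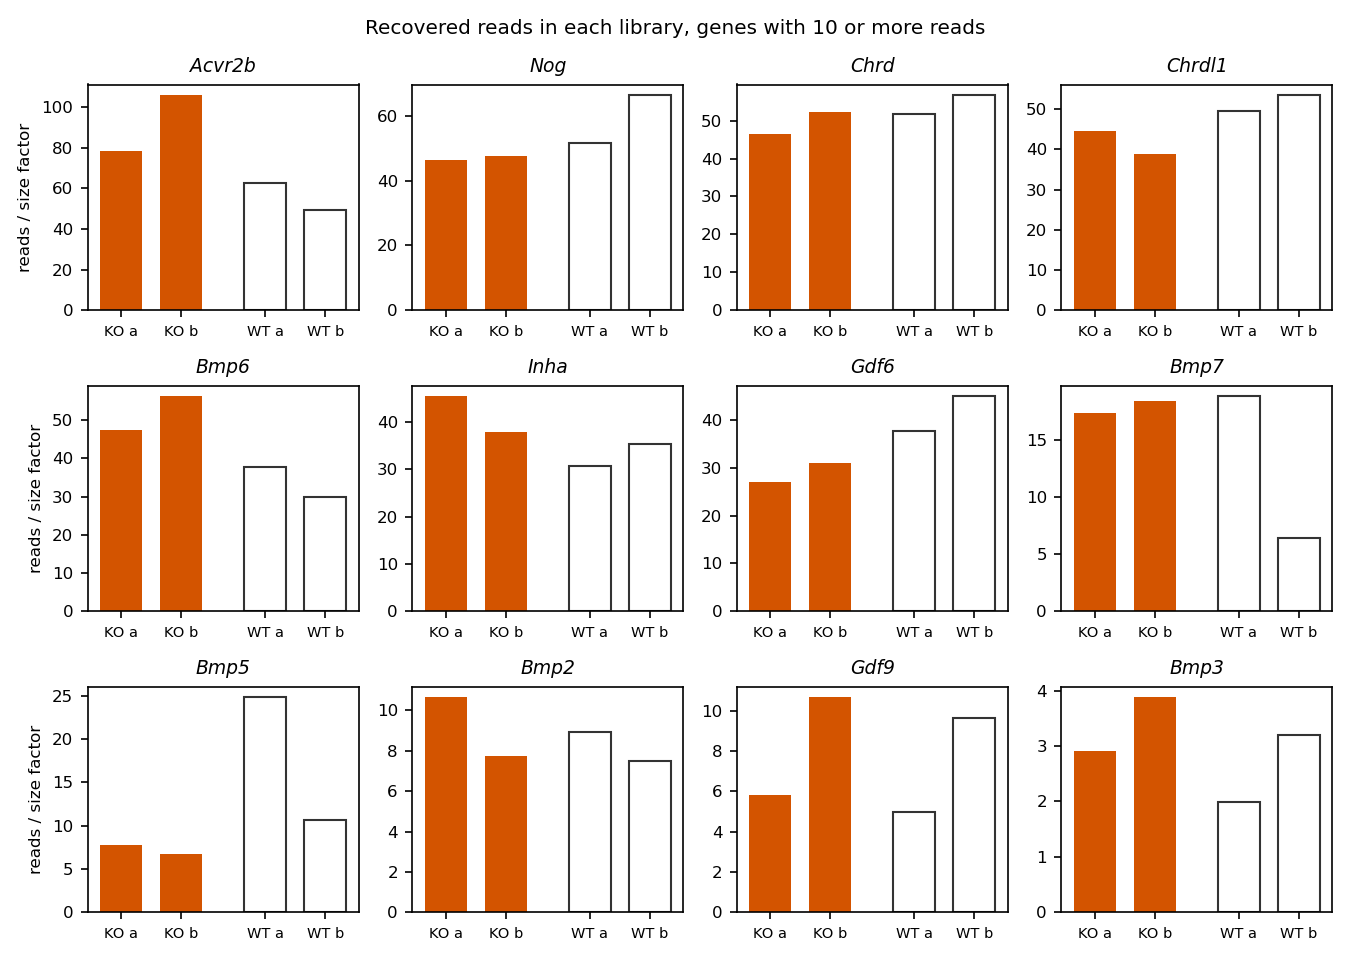
Bars give the recovered reads divided by the size factor in each library for the 12 genes with 10 or more reads, with both Cbx2 knockout libraries (orange) to the left of both wild-type libraries (white). Acvr2b, Bmp6 and Inha are higher in both knockout libraries, Nog, Chrdl1, Gdf6 and Bmp5 are lower in both, and the other 5 overlap. Letters name libraries within a genotype in no set order.

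Of the 12 recovered genes with 10 or more reads, 3 had both knockout libraries above both wild-type libraries and 4 had both below. Among all 3932 recovered genes with 10 or more reads the shares were 31.7% above and 19.3% below. In limma on these reads 1 of the 12 passed, Acvr2b, where 10.4% of the 3932 genes did.

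Genes of the latent TGF-beta binding family and the protease gene Bmp1 were abundant. Of these 5 genes 2 fell, where 4.3% of all genes were lower. Among all genes 15.5% were lower at a mean of 3000 to 10000, the band of Bmp1, and 25.1% above 10000, that of Ltbp2. Ltbp2 (gene 16997, chromosome 12 from 84783212 to 84876558), a matrix protein of the latent TGF-beta binding family that itself does not bind latent TGF-beta, had a signal of 16979 in knockout and 19664 in wild type. On the log2 scale the difference was -0.21 with an implied standard error of 0.038 in the authors' deposited table (DESeq2 adjusted p 1.28e-06). Its locus overlaps that of D030025P21Rik, which had 276 in knockout and 208 in wild type in the authors' deposited table. Bmp1 (gene 12153, chromosome 14 from 70474555 to 70520716) is not a ligand but a protease that processes procollagen and cleaves chordin, and had a signal of 5841 in knockout and 6765 in wild type. Its log2 fold change was also -0.21, with an implied standard error of 0.046, in the authors' deposited table (DESeq2 adjusted p 1.03e-04). Ltbp1, Ltbp3 and Ltbp4, which tether latent TGF-beta, did not pass, at log2 fold changes of -0.012 (Ltbp1), -0.054 (Ltbp3) and 0.13 (Ltbp4) in the authors' deposited table.

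All 8 antagonists had a fold change below 0, against 49.3% of all genes, and 3 of them fell. Of all genes 4.3% were lower, and of those at or above the median level, where 5 of the 8 lie, 7.1%. Grem1 (gene 23892, chromosome 2 from 113748675 to 113758648), the limb bud BMP antagonist, had 1879 in knockout and 2289.7 in wild type. The log2 fold change was -0.29 with an implied standard error of 0.067 in the authors' deposited table (DESeq2 adjusted p 5.87e-04). Fstl3 (gene 83554, chromosome 10 from 79777274 to 79782630), a follistatin-like binder of activin, had 1116 in knockout and 1416 in wild type. On the log2 scale the difference was -0.34 with an implied standard error of 0.080 in the authors' deposited table (DESeq2 adjusted p 4.44e-04).

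The other antagonists did not pass. Fst, follistatin itself, had a signal of 3169 in knockout and 3416 in wild type, a log2 fold change of -0.11, in the authors' deposited table (DESeq2 adjusted p 0.393). Fstl1, a secreted glycoprotein and the most abundant of the 60 genes, had 30658 and 31144 in knockout and wild type, a fold of 0.984 with an implied 95% interval of 0.940 to 1.03, in the authors' deposited table. The classic BMP antagonists were low. Nog, noggin, had 48 and 49 reads in the knockout libraries, against 52 and 62 in the wild-type libraries, and Chrdl1, a chordin-like protein, had 46 and 40 against 50 and 50. Both were lower in each knockout library and did not pass in limma (adjusted p 0.428 for Nog and 0.457 for Chrdl1). Chrd, chordin, had 48 and 54 reads in the knockout libraries, against 52 and 53 in the wild-type libraries, and the groups overlapped.

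Of 12 receptor genes 4 fell and none rose. Of all genes 4.3% were lower and 3.48% higher, and at or above the median level, where 10 of the 12 lie, 7.1% and 4.66%. Acvr2a (gene 11480, chromosome 2 from 48814109 to 48903264), a type II receptor for activins and some BMPs, had a signal of 389 in knockout and 613 in wild type. Its log2 fold change was -0.66 with an implied standard error of 0.12, a level in knockout of 0.635 of wild type (implied 95% interval 0.537 to 0.749), in the authors' deposited table (DESeq2 adjusted p 3.32e-06). Its locus overlaps that of Orc4, which had 902 in knockout and 931 in wild type in the authors' deposited table. Tgfbr3 (gene 21814, chromosome 5 from 107106567 to 107289629), the coreceptor betaglycan, which presents TGF-beta to its receptors, had 999 in knockout and 1408 in wild type. The log2 fold change was -0.50 with an implied standard error of 0.089 in the authors' deposited table (DESeq2 adjusted p 1.07e-06). Tgfbr1 (gene 21812, chromosome 4 from 47353222 to 47414926), the type I TGF-beta receptor, had 909 in knockout and 1205 in wild type, a log2 fold change of -0.41 with an implied standard error of 0.086 in the authors' deposited table (DESeq2 adjusted p 7.45e-05). Bmpr1a (gene 12166, chromosome 14 from 34411061 to 34503336), a type I BMP receptor, was the weakest call, with 2187 in knockout and 2482 in wild type and a log2 fold change of -0.18 in the authors' deposited table (DESeq2 adjusted p 0.0436). Its call was lost with implied standard errors widened by 20%.

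The partner of Tgfbr1 in the TGF-beta receptor, Tgfbr2, had a signal of 2989.9 in knockout and 3129 in wild type, a fold of 0.956 with an implied 95% interval of 0.884 to 1.03, in the authors' deposited table. Bmpr2, the type II BMP receptor, had 2309 in knockout and 2515 in wild type, a fold of 0.918 (0.746 to 1.13) in the authors' deposited table. Acvr1, Acvr1b, Acvrl1 and Bmpr1b, the other expressed type I receptors, were at -0.096, -0.15, -0.16 and 0.072 on the log2 scale (knockout over wild type) in the authors' deposited table, with DESeq2 adjusted p from 0.417 to 0.931. Acvr1c had 1 read in each knockout library, against 1 and 0 in the wild-type libraries.

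Acvr2b, the close relative of Acvr2a, lay on the other side. It had 81 and 109 reads in the knockout libraries, against 63 and 46 in the wild-type libraries, so that both knockout libraries were the higher. On the log2 scale the difference was 0.66 with an implied standard error of 0.30 and did not pass in the authors' deposited table (DESeq2 adjusted p 0.227). In limma on the recovered reads the log2 difference was 0.70 with a standard error of 0.20 and passed (adjusted p 0.0284). The difference was 0.92 without knockout library a, 0.49 without knockout library b, 0.87 without wild-type library a and 0.53 without wild-type library b. Its size thus depended on the library left out. Each of these fits left 1 library in a genotype, so no call is drawn from them. Per kb Acvr2a was the more abundant in both genotypes, at 68.5 in knockout and 107.9 in wild type, against 8.53 and 5.40 for Acvr2b.

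None of the 8 SMAD genes passed (1, Smad9, at an unadjusted DESeq2 p under 0.05). The TGF-beta and activin SMADs Smad2 and Smad3 had log2 fold changes of -0.042 and -0.053, the BMP SMADs Smad1 and Smad5 of -0.027 and 0.051, the shared Smad4 of 0.088, and the inhibitory Smad6 and Smad7 of 0.055 and -0.014 in the authors' deposited table. The signals of these 7 genes lay between 749 (Smad1) and 2029 (Smad4) in knockout and between 763 (Smad1) and 1908 (Smad4) in wild type. For Smad4 the fold was 1.06 with an implied 95% interval of 0.970 to 1.16. Smad9, the third BMP SMAD and the least abundant, had 339 in knockout and 444 in wild type, a log2 fold change of -0.39 with an implied standard error of 0.14, just outside the threshold in the authors' deposited table (DESeq2 adjusted p 0.0514).

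Of the 4 Id genes 2 fell. Among all genes 4.3% were lower, or 7.1% of those at or above the median level, where all 4 lie. Id3 (gene 15903, chromosome 4 from 136143822 to 136145392), the most abundant of the Id genes, had a signal of 4237 in knockout and 5289 in wild type. Its log2 fold change was -0.32 with an implied standard error of 0.050 in the authors' deposited table (DESeq2 adjusted p 9.4e-09). Id4 (gene 15904, chromosome 13 from 48261116 to 48266028) had 469 in knockout and 690.02 in wild type, a log2 fold change of -0.56 with an implied standard error of 0.12 in the authors' deposited table (DESeq2 adjusted p 5.55e-05). Id1 had 1999 in knockout and 2221 in wild type, a fold of 0.900 with an implied 95% interval of 0.824 to 0.983, and did not pass after adjustment in the authors' deposited table (DESeq2 adjusted p 0.175). Id2 had 949 and 942 in knockout and wild type, a fold of 1.01 with an implied 95% interval of 0.890 to 1.14, in the authors' deposited table. The promoters of Id2 and Id4 shown above both hold GGCGCC, and that of Id3 holds CAGAC. Whether Id3 and Id4 differed from Id2 in their change was not tested.

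Genes of the pathway outside the 60 were read from 5 lists, 106 genes in all, of which 19 fell and 7 rose, where 4.3% of all genes were lower and 3.48% higher, or 7.1% and 4.66% of those at or above the median level, where 77 of the 106 lie (Thbs1 and some others stand in 2 lists), with a median log2 fold change of -0.024. Among 23 genes known to respond to TGF-beta 7 fell and 3 rose, with a median of -0.047. The share of all genes lower was greater at high levels, with 15.5% at a mean of 3000 to 10000 and 25.1% above 10000. Postn, the matrix protein periostin, had 8337 in knockout and 39240.1 in wild type, a log2 fold change of -2.23 with an adjusted p listed as 0, and Col3a1 (-0.38) and Col1a2 (-0.29), collagen genes that are fibroblast markers too, fell on the same scale in the authors' deposited table. Ctgf, the connective tissue growth factor, rose slightly (0.10), and the cytokine gene Il11 rose by more (0.47) in the authors' deposited table.

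Among 15 BMP responsive genes 2 fell and 1 rose, with a median log2 fold change of -0.12. The transcription factor genes Gata2 (-0.85) and Atoh8 (-0.26) fell on the log2 scale, and the homeobox gene Msx2, with 187 in knockout and 108 in wild type, had 0.79 in the authors' deposited table. Among 21 genes that store or activate latent TGF-beta 8 fell and none rose, with a median of -0.055. All 8 that fell had a wild-type signal above 1000. Of all genes 7.71% were lower at a mean of 1000 to 3000, 15.5% at 3000 to 10000 and 25.1% above 10000. Dcn, the proteoglycan decorin, which binds TGF-beta, had a log2 fold change of -1.06, its relative Aspn, asporin, of -0.75, and Mmp2, a matrix protease, of -0.31 in the authors' deposited table. Among 25 other ligands, coreceptors and antagonists (4% lower and 4% higher, near the share of all genes) Bmper, a BMP-binding protein, fell (-0.42) and Neo1, a receptor for BMP coreceptors of the RGM family, rose (0.29) in the authors' deposited table. Among 27 intracellular regulators (7.41% lower and 7.41% higher) the ubiquitin ligase genes Nedd4l (0.50) and Smurf2 (0.19) rose, and Zeb2 (-0.26), which encodes a SMAD-binding repressor, and Fkbp1a (-0.15), which encodes a binder of type I receptors, fell in the authors' deposited table.

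**Figure D5:**
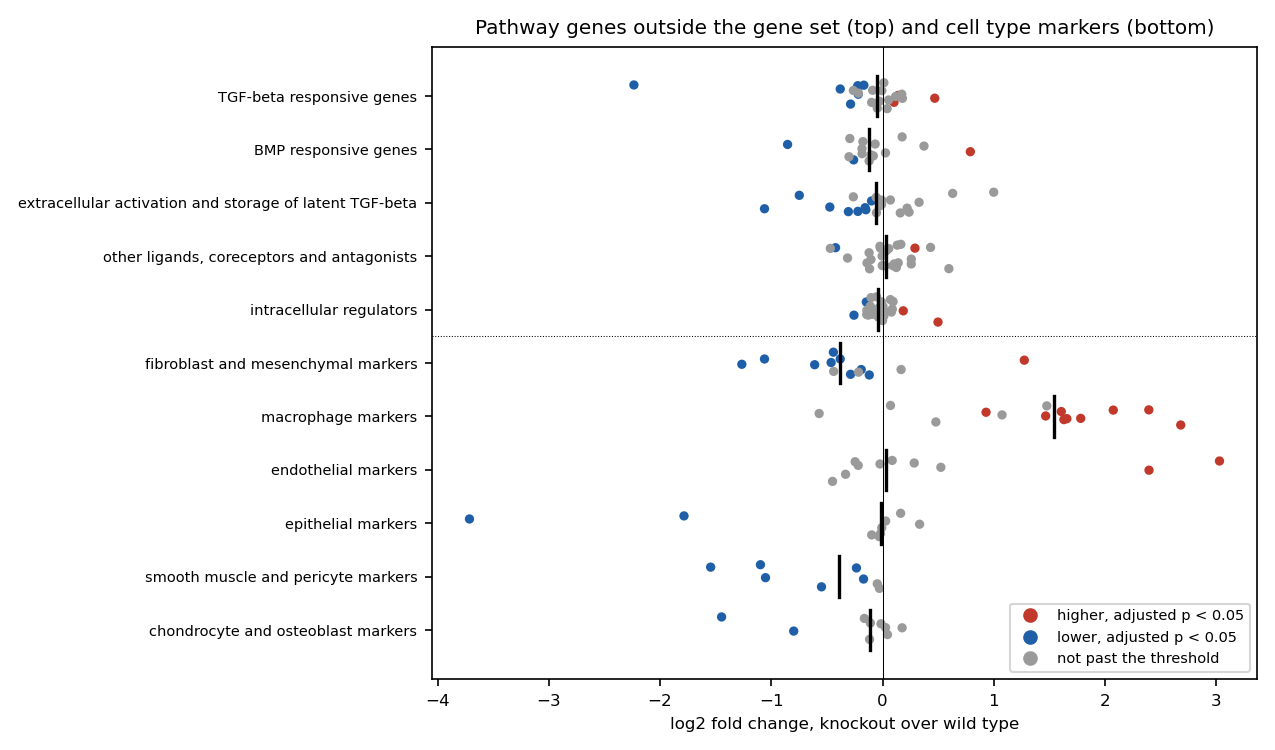
Each point is the log2 fold change (knockout over wild type) of a gene in the authors' deposited table, with 5 lists of pathway genes outside the 60 in the upper part and 6 lists of cell type markers in the lower part. Black bars are list medians, and red and blue points are genes higher and lower in knockout. The pathway medians lie between -0.12 and 0.033, that of fibroblast markers at -0.38 and that of macrophage markers at 1.54.

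Cell type markers moved in the same comparison. Of 13 fibroblast and mesenchymal markers 9 fell and 1, Thy1, rose (11919 in knockout and 4928 in wild type). Of 8 smooth muscle and pericyte markers 6 fell, and Acta2 (131483 in knockout and 135878 in wild type) and Tagln (46291 and 47204) did not pass. Among all genes 4.3% were lower and 3.48% higher, with 15.5% lower at a mean of 3000 to 10000 and 25.1% above 10000. Summed signals were 516703 in knockout and 604114 in wild type for the fibroblast list, and 198499.5 and 209107 for the smooth muscle list. Of 14 macrophage markers 9 rose, with a summed signal of 1893 in knockout and 667 in wild type. Endothelial markers (10 genes) had 2 rises and a sum of 758 in knockout and 264 in wild type, epithelial markers (9 genes) 2 falls and a sum of 272 and 560, and markers of cartilage and bone (9 genes) 2 falls and a sum of 2951 and 3155. The endothelial rises were Esam (290.2 in knockout and 35.6 in wild type) and Cdh5 (324 and 61.6), with Pecam1 at 1.98 and 2.02. The epithelial falls were Krt18 (75.6 in knockout and 260.4 in wild type) and Krt8 (7.48 and 98.0), with Epcam at 1.97 and 1.99. The macrophage gene Lyz2 had 947 in knockout and 148 in wild type in the authors' deposited table. Of the 14 macrophage markers 5 did not pass, among them Csf1r at 257 in knockout and 245 in wild type. No marker had a deposited value of 0, but such a value does not show that reads were present in that genotype. Gdf2, with 0 reads in both knockout libraries, had a deposited knockout value of 0.256. The part of these shifts in the changes of the 60 genes was not tested. In bulk RNA, fewer cells of a type and less RNA per cell cannot be told apart.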

How the data were processed

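RNA libraries (2 per genotype) were grouped by the genotype in their titles, and the ATAC-seq libraries were not analysed here. The submitters' processing notes name DESeq2, HISAT2, RSEM and Bowtie2 and the mm10 build; the sources used here give no versions or roles and do not say how reads were assigned. Each genotype has 1 expression column, a normalised signal deposited by the authors. The log2 fold changes deposited by the authors equal the log2 ratio of these columns to within 9.13e-09, and the adjusted p-values deposited by the authors equal the Benjamini-Hochberg adjustment of their p-values over 17441 genes to within 1.33e-06. Transcript lengths are those deposited by the authors.

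Genes were called where the authors' deposited DESeq2 adjusted p was under 0.05. The table used holds no value per library, so standard errors and 95% intervals were implied from the fold change and p on a normal scale. Whole reads were recovered where both values were under 100 and exactly 1 set of reads in 4 libraries matched the mean within 6e-09 (6768 genes). Every gene under that limit had at least 1 match, with 100% of genes having exactly 1 below a mean of 50 and 56.1% between 75 and 100. Decoy means found a match in 11.3% of cases between 50 and 75, the band of Acvr2b. The genotype of a library follows from the sign of the deposited fold change in genes with a single read. Recovered reads were tested with limma 3.58.1 (R 4.3.3) on log2(scaled reads + 1) in 3932 genes with 10 or more reads, adjusted over these. On simulated reads for knockout versus wild type (3945 genes) limma recovered 190 of 200 genes changed 4-fold and called 2 unchanged genes. The changed genes were drawn from those with a mean of 10 or more, and the spread was assumed, not estimated from these data. Recovery of smaller changes was not tested. Intervals cover the spread within these 4 libraries only.

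All 60 genes matched RefSeq GRCm38.p6 by gene identifier, which gave the coordinates. The genes, lists and rules were chosen with earlier results of these data known. All 60 genes enter the counts, and 1 of the 13 called genes is not reported here. Of the pathway lists, up to 3 called genes with the smallest adjusted p were named, and Il11, Ctgf and Smurf2 were added after their values were seen, as were the examples among the cell type markers. Alternatives varied the threshold, fold, filter, spread and centring, and for recovered reads the pseudocount, filter and libraries.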

Additional observations from a re-analysis of the deposited data

How the results depend on the processing

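Of the 13 called genes 12 held with an adjusted p under 0.01, with implied standard errors widened by 20% and with the median log2 fold change (-0.011) subtracted, Bmpr1a being the one lost in each. All 12 falls held when only genes at or above the median level were adjusted, with 14 members then lower, Smad9 and Inhbb among them. In that setting 0 genes of the family were higher, Bmp4 lying below that level and out of the test. With an adjusted p under 0.1 also 14 members were lower, the same genes being gained. With an absolute log2 fold change of at least 1 required, 0 of the family were higher and 0 lower, against 175 and 119 of all genes and 0 and 2 of the pathway genes outside the family. With widened errors 395 of all genes and 3 of those pathway genes were higher. None of the 13 called genes changed sign under these settings.

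Of the low genes with recovered reads 1, Acvr2b, passed limma. Leaving out each library left 1 library in a genotype, so only effect sizes are given. The log2 difference of Acvr2b then lay between 0.49 and 0.92, and the uncalled Bmp7, Bmp2 and Gdf9 changed sign. Without a filter on low reads 0 passed (2 at an unadjusted limma p under 0.05), but limma then called 0 of all 6768 genes. With means under 50 only 0 passed, since Acvr2b, with a mean of 73.9, was left out. By the authors' DESeq2 adjusted p 0 passed. The last 2 settings, and the alternatives for pathway lists, were added after seeing the data. No paired analysis was possible because the table holds no value per numbered library. Depth limits the 19 members with a mean under 100, whose implied standard error had a median of 0.36 on the log2 scale, against 0.049 for the 9 members between 3000 and 10000.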

Other observations

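The genes next to 12 of the called members, taken as the nearest protein-coding gene of the table on each side in RefSeq GRCm38.p6, were described without a test. Of 24 such neighbours 2 were lower, 0 were higher (DESeq2 adjusted p under 0.05 in the authors' deposited table) and 22 did not pass, where 4.3% of all genes were lower. Col15a1, a basement membrane collagen gene 40.1 kb from Tgfbr1, had 332 in knockout and 659 in wild type, a log2 fold change of -0.99 in the authors' deposited table (DESeq2 adjusted p 3.24e-13), while Alg2 on the other side had 1130.3 and 1082. The other was Zeb2, 3697 kb from Acvr2a, at a log2 fold change of -0.26.

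Around Grem1 the neighbours Fmn1 and Scg5 did not pass, at log2 values of -0.11 and -0.75, knockout over wild type, per the authors' deposited table, and around Bmp4 the nearest genes, Ddhd1 at 725 kb and Cdkn3 at 369.8 kb, were at 0.15 and 0.072. The neighbours of Id3, Rpl11 and E2f2, and of Id4, Rnf144b and Zfp169, did not pass either, with log2 fold changes from -0.29 to 0.037 in the authors' deposited table.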
